A study of Mus musculus with 24 samples.

Results

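Adult fat of 6 male mice exposed to bisphenol A (BPA) before birth was compared by RNA sequencing with the fat of 3 vehicle males whose Fggy RNA was low. The vehicle animals, numbered 2, 3 and 5 in the labels, are those that a marker line in the authors' table calls low in Fggy. The comparison uses 9 of the 24 libraries of the series and 9 of its 12 RNA libraries. All animals were males of CD-1, an outbred stock, and gave epididymal white fat at 19 weeks of age. Their mothers had received BPA at 500 ug per kg per day in corn oil, or corn oil alone as the vehicle, by mouth from gestational day 9 to 18. The chow held 4% fat, and ribosomal RNA was removed before libraries were made for SOLiD sequencing. Littermates are not identified in the labels, so the p-values treat animals as independent. Genes were tested where the authors' normalized read count reached 10 in at least 3 of the 9 libraries, which left 13020 of the 20624 genes of the table after Fggy was set aside.

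Fggy encodes a carbohydrate kinase of the FGGY family. Its level chose the vehicle animals and is given as a description, with no test. The mean normalized read count was 622 ± 69.2 (SD, n = 6) in the BPA animals and 170.5 ± 22.2 (SD, n = 3) in the low-Fggy vehicle animals. The highest of these 3 vehicle animals stood at 195.6, and the lowest of the other 3 vehicle animals, which the table marks as high in Fggy, stood at 591. The vehicle side is therefore part of a group picked by a measured level, so the comparison asks how BPA fat differed from low-Fggy fat and is no test of BPA exposure.

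White fat stores energy as triglyceride in adipocytes and secretes hormones such as leptin and adiponectin. Between the adipocytes lie progenitor cells, blood vessels and resident macrophages, which take up debris and hemoglobin and secrete complement proteins and chemokines. Chemokines call monocytes and lymphocytes from the blood, and venule endothelium is where those cells leave the vessel. BPA is a plastics monomer that can bind estrogen receptors.

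The tissue label was checked against adipocyte transcripts. Adiponectin (Adipoq) ranged from 22029.6 to 41685 in BPA fat and was 32232, 31270.3 and 35999.8 in vehicle animals 2, 3 and 5, and leptin (Lep), Cidec and Pparg were also high in all 9 animals. Library sums ran from 9699498 to 11582945, but these are rescaled totals, so the depth behind each value is unknown. Several libraries stood apart. Vehicle animal 3 carried far more myeloid and interferon-induced RNA than any other animal, with Itgam, the integrin subunit CD11b, at 8930.0 against 955 to 1785 in BPA fat, and Irgm2, an interferon-induced GTPase, at 5832 against 393 to 631. Vehicle animals 2 and 3 carried liver-type transcripts, BPA animals 2 and 5 carried duct epithelium transcripts, and BPA animal 3 carried Ucp1. Because vehicle animal 3 is 1 of only 3 animals on its side, values without it are given beside many of the results that lean on it. In bulk tissue, fewer cells of a type and less RNA per cell cannot be told apart.

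None of the 13020 genes passed an adjusted p of 0.05 in either direction (limma, two-sided, Benjamini-Hochberg adjustment), a called share of 0%, and the smallest adjusted p was 0.959. At an unadjusted limma p under 0.05, 295 genes (2.27%) were higher in BPA fat and 270 (2.07%) were lower, 4.34% in all. The 6 BPA values lay wholly above the 3 vehicle values for 122 genes (0.937%) and wholly below for 113 (0.868%). By direction alone 51.4% of genes were higher, and the median over all genes was 0.0068 on the log2 scale. The half-width of the 95% interval of a gene's log2 fold had a median of 0.42. This interval is not adjusted for the 13020 genes tested, so a call needed a larger fold than this for a typical gene. Without vehicle animal 3, the genes at an unadjusted p under 0.05 numbered 150 higher and 103 lower, and without vehicle animal 2 they numbered 399 and 549. With BPA animals 2 and 5 left out, 3 genes passed the adjusted threshold, all lower in BPA fat, among them Lcn2 and Arl4c, which are described with the duct transcripts. Since no gene passed with all 9 animals, the genes below are given by their levels, and a lower or higher value is a direction, not a call. The text names genes by size and p, so lack of overlap in them follows in part from how they were chosen.

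The gene with the smallest p was Fcna, which encodes ficolin A, a lectin that binds microbial sugars, starts the lectin pathway of complement and is made by mouse macrophages. Its normalized read count was 129 to 237 (median 205) in the BPA animals and 349, 452 and 451 in vehicle animals 2, 3 and 5. All BPA animals lay below all 3 vehicle animals. The means were 198 ± 37.4 against 418 ± 59.2 (SD, n = 6 and 3), with a log2 fold of -1.08 (95% interval -1.50 to -0.67), an exact permutation p of 0.0119 and a limma adjusted p of 0.959. With 84 ways to divide 9 animals into 6 and 3, 0.0119 is the smallest p the exact test can give. The log2 fold was -1.02 without vehicle animal 3, so it did not lean on the animal richest in myeloid RNA.

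The promoters of 4 genes with small p are shown to give their sequence context. Fcna and Ctsc are expressed in macrophages, and PU.1, a transcription factor that macrophages depend on, binds a short purine-rich core. Each runs from 250 bases before to 50 after the RefSeq start on GRCm38.p6, on the strand of the gene, with capitals marking GAGGAAG (a PU.1-like core) and GGGCGG (a GC box) or their reverse complements.
Fcna, chr2:25627925-25628224, minus strand: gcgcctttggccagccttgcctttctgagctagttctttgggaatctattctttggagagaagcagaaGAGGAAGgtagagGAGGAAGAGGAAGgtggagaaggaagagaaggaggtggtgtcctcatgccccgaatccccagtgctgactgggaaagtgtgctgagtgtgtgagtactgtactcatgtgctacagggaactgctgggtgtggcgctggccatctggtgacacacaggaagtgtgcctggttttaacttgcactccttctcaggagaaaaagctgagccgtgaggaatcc
Ctsc, chr7:88277835-88278134, plus strand: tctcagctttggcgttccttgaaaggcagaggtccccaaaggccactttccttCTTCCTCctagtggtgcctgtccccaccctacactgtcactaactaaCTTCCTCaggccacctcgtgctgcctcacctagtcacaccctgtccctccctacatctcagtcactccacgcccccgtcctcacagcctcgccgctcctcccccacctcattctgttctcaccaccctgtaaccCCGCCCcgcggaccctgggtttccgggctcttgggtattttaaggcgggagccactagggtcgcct
Darc, chr1:173333454-173333753, minus strand: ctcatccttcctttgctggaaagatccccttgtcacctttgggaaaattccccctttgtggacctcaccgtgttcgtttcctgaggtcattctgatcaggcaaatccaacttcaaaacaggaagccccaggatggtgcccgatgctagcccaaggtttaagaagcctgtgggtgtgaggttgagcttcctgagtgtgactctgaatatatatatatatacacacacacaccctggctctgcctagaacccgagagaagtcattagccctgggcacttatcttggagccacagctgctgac
Celsr2, chr3:108415530-108415829, minus strand: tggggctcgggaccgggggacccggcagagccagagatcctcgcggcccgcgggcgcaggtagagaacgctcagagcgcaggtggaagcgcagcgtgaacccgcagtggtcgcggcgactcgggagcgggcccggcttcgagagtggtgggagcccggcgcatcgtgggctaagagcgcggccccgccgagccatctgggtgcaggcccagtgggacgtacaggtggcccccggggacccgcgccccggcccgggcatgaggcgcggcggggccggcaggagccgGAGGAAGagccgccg
Fcna held 3 matches to GAGGAAG, 2 of which share a base, Ctsc held 2, Celsr2 held 1 and Darc held none. Of the 20 genes with the smallest p, 14 had a promoter in the RefSeq table. GAGGAAG was found on either strand in 3 of the 8 lower genes among them and in 3 of the 6 higher genes, against 13.5% of 27025 mouse promoters of the same length. GGGCGG was found in 4 of 8 and 1 of 6, against 35.9%, and TATAAA in none of either, against 14.2%. A match to these letters is a description and not a bound site.

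Several macrophage scavenger genes followed the direction of Fcna. Cd163, the receptor that clears hemoglobin bound to haptoglobin, stood at 455 to 1094 (median 749) in BPA fat and at 1413, 1481 and 1160.2 in vehicle animals 2, 3 and 5. The groups did not overlap, the log2 fold was -0.84 (95% interval -1.40 to -0.29) with an exact permutation p of 0.0238, and it was -0.77 without vehicle animal 3. Mgl2, a galactose-binding lectin of tissue macrophages, was 34.8 to 73.1 (median 57.2) in BPA fat and 83.8, 109 and 83.6 in the vehicle animals, again without overlap, with a log2 fold of -0.69 (95% interval -1.21 to -0.18). C1qc, a chain of the first complement component, overlapped slightly, at 278 to 455 (median 379) against 479.9, 894 and 451, with a log2 fold of -0.64 that was -0.32 without vehicle animal 3. Hmox1, which breaks down the heme that Cd163 brings in, was 248 to 330.4 (median 287) in BPA fat and 477, 995 and 344 in the vehicle animals, with a log2 fold of -0.94 that was -0.51 without vehicle animal 3.

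Of 29 measured resident macrophage genes, 28 were lower in BPA fat against 48.6% of all genes, with 9 at an unadjusted p under 0.05 (31.0% against 2.07% of all genes lower at that p), none past the adjusted threshold, and 3 wholly below the vehicle values (0.868% of all genes). The 9 became 1 without vehicle animal 3 and 18 without vehicle animal 2. Their median log2 fold was -0.52, against 0.0068 over all genes, and it was -0.18 without vehicle animal 3 and -0.76 without vehicle animal 2. Not all scavenger genes separated the groups. Mrc1, a scavenger receptor, was 3577 to 4820 (median 4449) in BPA fat and 4443, 8779 and 6027 in vehicle animals 2, 3 and 5. Vehicle animal 2 thus lay inside the BPA range. General macrophage markers also had another order of animals than Cd163. Emr1, the F4/80 antigen, was 536 to 816 (median 635) in BPA fat and 473, 2091 and 594 in vehicle animals 2, 3 and 5, so vehicle animal 2 lay below every BPA animal and vehicle animal 3 far above. Cd68, a lysosomal glycoprotein, was also far higher in vehicle animal 3, at 546 to 799.6 against 592, 1916 and 680.2, but vehicle animals 2 and 5 lay inside the BPA range. Summed over the list, BPA fat held 17808 to 22693 and vehicle animals 2, 3 and 5 held 21582, 48509.9 and 24899.9. The lipid-associated macrophage genes, which mark macrophages that ingest fat, had a median of -0.20 that was 0.12 without vehicle animal 3.

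Groups also lay apart for chemokine genes, where the size of the fold rested on vehicle animal 3. Ccl6, a myeloid chemokine, was 302 to 504 (median 441) in BPA fat and 703, 3735 and 682 in vehicle animals 2, 3 and 5. Ccl9, a related chemokine, was 419 to 731 (median 633) against 905, 3325 and 841. Every BPA animal lay below every vehicle animal for both genes, and vehicle animal 3 stood several-fold above the other 2 vehicle animals. The log2 folds were -1.51 (95% interval -2.53 to -0.49) for Ccl6 and -1.19 (95% interval -2.03 to -0.35) for Ccl9, each with an exact permutation p of 0.0119, and without vehicle animal 3 they were -0.70 and -0.54. Ccl12, a monocyte attractant, was 14.2 to 49.7 (median 19.1) against 34.9, 114 and 64.8 with overlap, a log2 fold of -1.53 that was -1.12 without vehicle animal 3. Of 22 measured chemokine and cytokine genes 20 were lower, 4 of them at an unadjusted p under 0.05 (18.2% against 2.07% of all genes) and none past the adjusted threshold. The 4 became 3 without vehicle animal 3 and 9 without vehicle animal 2, and the median of -0.65 was -0.24 without vehicle animal 3.

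Receptors and products of leukocytes were lower as well. Ccr1, a receptor for CC chemokines, was 35.5 to 54.6 (median 44.7) in BPA fat and 67.6, 239 and 87.1 in the vehicle animals, with a log2 fold of -1.30 (95% interval -2.07 to -0.54) that was -0.76 without vehicle animal 3. Cysltr1, a receptor for cysteinyl leukotrienes, was 73.2 to 114 (median 98.7) against 136, 227 and 143, with a log2 fold of -0.79. Ctsc, the cathepsin that activates granule proteases, was 1219 to 1473 (median 1404) against 2071, 3849 and 1763, with a log2 fold of -0.82 (95% interval -1.27 to -0.36) that was -0.48 without vehicle animal 3. These 3 genes had no overlap between the groups, as had Il18bp, a secreted inhibitor of interleukin 18, at 66.1 to 87.8 against 91.5, 509 and 102.3. The log2 fold of Il18bp was -1.15, and -0.36 without vehicle animal 3. Emb, a membrane partner of a monocarboxylate transporter, was 129 to 217 in BPA fat and 261, 724 and 252 in the vehicle animals, and its log2 fold of -1.08 was -0.58 without vehicle animal 3. Sla2, an adaptor that dampens T cell receptor signalling, was nearly even among the vehicle animals, at 290.0 to 378 (median 333) against 413, 441 and 475, with a log2 fold of -0.43 with and -0.43 without that animal.

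**Figure D1:**
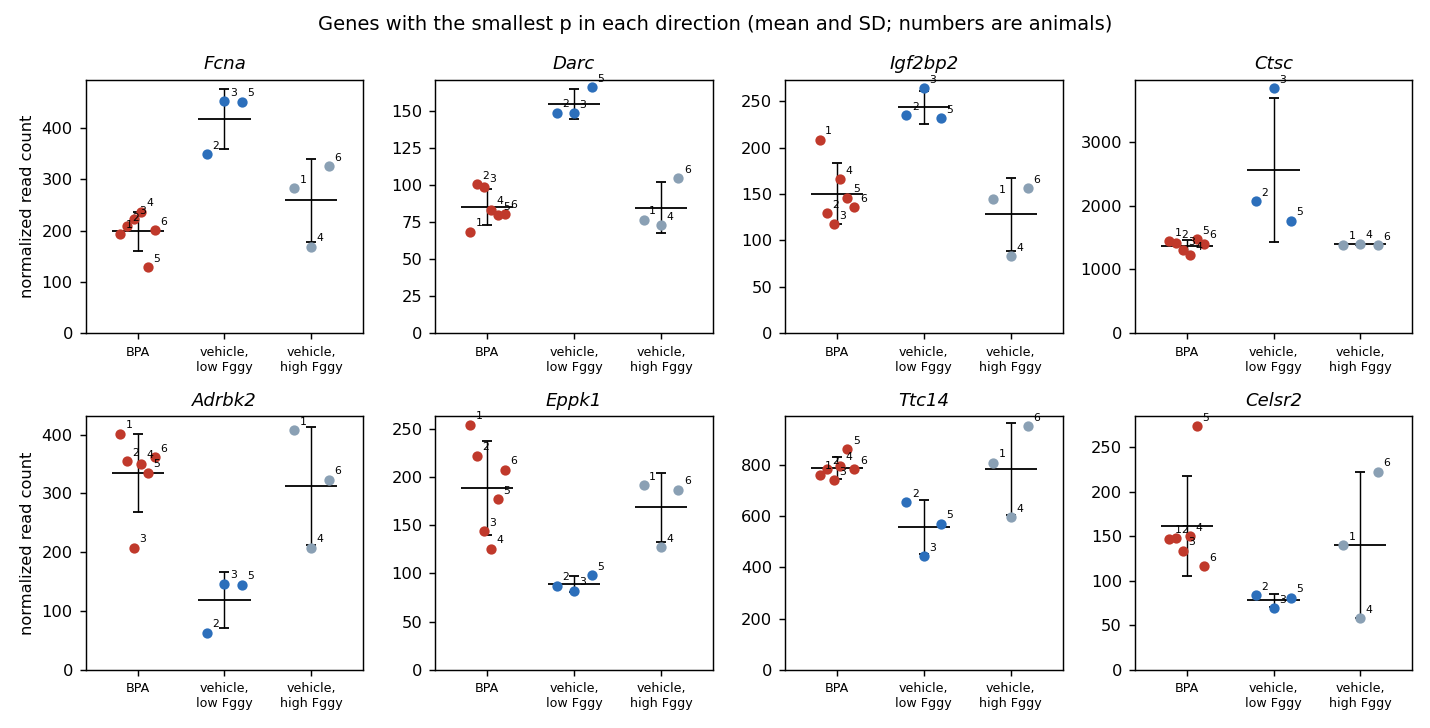
Normalized read count (vertical axes, from 0) of the 4 lower and 4 higher genes with the smallest p, by animal, in BPA fat, low-Fggy vehicle fat and high-Fggy vehicle fat, with the mean and SD of each group. For all 8 genes the 6 BPA animals do not overlap the low-Fggy vehicle animals, whereas at least 1 high-Fggy vehicle animal lies within or beside the BPA range in each.

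The wider immune lists also leaned on vehicle animal 3, several of them more strongly. Interferon-induced genes were lower in BPA fat for 27 of 30 measured members, with a median of -0.69 that was -0.03 without vehicle animal 3. Iigp1, an interferon-induced GTPase, was 140.1 to 261 (median 192) in BPA fat and 124.3, 6188 and 334 in vehicle animals 2, 3 and 5, so vehicle animal 3 lay far above and vehicle animal 5 slightly above the BPA range. Rsad2, the antiviral enzyme viperin, was 91.9 to 159.6 (median 112) against 136, 274 and 205, with a log2 fold of -0.72 that was -0.48 without vehicle animal 3. In the interferon list 2 members had an unadjusted p under 0.05 (6.67% against 2.07% of all genes) and none passed the adjusted threshold. The 2 became 0 without vehicle animal 3, 17 without vehicle animal 2 and 5 without vehicle animal 5.

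Complement genes were lower for 19 of 21 members, 8 of them at an unadjusted p under 0.05 (38.1% against 2.07% of all genes), with a median of -0.59 that was -0.14 without vehicle animal 3. Without that animal no complement gene had an unadjusted limma p under 0.05. The complement and resident macrophage lists share members, C1qc among them, so they are not separate results. C2, a protease of the classical and lectin pathways, was 615 to 1003 (median 769) in BPA fat and 1299, 1762 and 908 in the vehicle animals, with overlap through vehicle animal 5. Properdin (Cfp), which stabilizes the alternative pathway, was 99.5 to 166 (median 114) against 154, 442 and 199, with overlap through vehicle animal 2. Their log2 folds were -0.68 and -0.92, and -0.45 and -0.48 without vehicle animal 3.

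Monocyte, neutrophil and dendritic cell genes had a median of -0.69 (11 of 14 lower) that was -0.22 without vehicle animal 3. T and B lymphocyte genes were lower for 15 of 16 members with a median of -0.55, and -0.22 without that animal. For acute phase genes the median was -0.46 with and -0.07 without vehicle animal 3. The medians of antigen presentation and cell cycle genes had the opposite sign without it, -0.32 with and 0.18 without, and -0.39 with and 0.12 without. In these 5 lists none of the members passed the adjusted threshold, and what sets vehicle animal 3 apart was not tested.

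**Figure D2:**
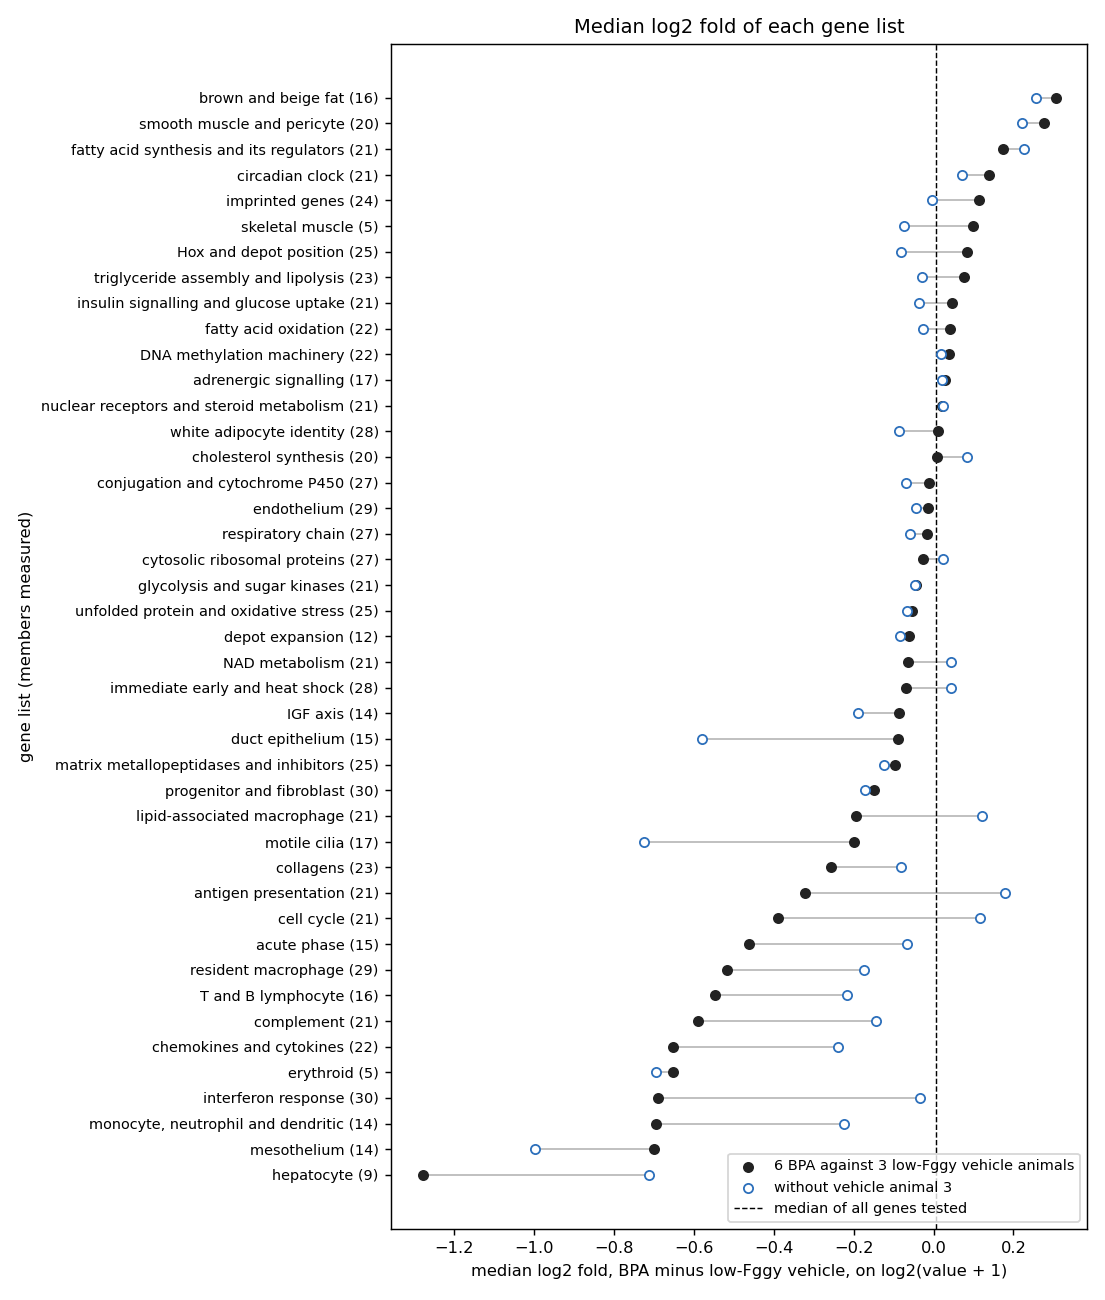
Median log2 fold of BPA minus low-Fggy vehicle fat (horizontal axis) for each gene list with at least 5 measured members (vertical axis, members in brackets). Filled points use all 9 animals, open points leave out vehicle animal 3, and the dashed line is the median of all genes; the interferon list lies at -0.69 with and -0.03 without that animal, while the mesothelium list lies at -0.70 and -0.9966.

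Among vessel genes the venule marker Darc had the tightest separation. Darc, known now as Ackr1, encodes an atypical chemokine receptor of venule endothelium and erythrocytes that binds chemokines without signalling through G proteins. Its normalized read count was 68.6 to 100.8 (median 82.1) in BPA fat and 149, 149 and 166 in vehicle animals 2, 3 and 5. The vehicle animals lay close together, all above the BPA animals. The means were 85.3 ± 12.3 against 155 ± 10.1 (SD, n = 6 and 3), with a log2 fold of -0.86 (95% interval -1.20 to -0.53), an exact permutation p of 0.0119 and a limma adjusted p of 0.959. Leaving out each vehicle animal in turn gave -0.89, -0.89 and -0.81. P-selectin (Selp), which slows leukocytes on venules, was 75.1 to 157 (median 118) against 135, 304 and 193 with overlap (log2 fold -0.84, and -0.54 without vehicle animal 3), and Tek, the angiopoietin receptor of all endothelium, was 978 to 1421 (median 1224) against 1471, 1337 and 1724. The 29 endothelial genes as a list were divided 13 higher and 16 lower, with a median of -0.01, and Pecam1, a general endothelial adhesion molecule, was 1695 to 2301 (median 1927) against 2169.7, 2161 and 2389.7.

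Smooth muscle and pericyte genes had a median of 0.28 (16 of 20 higher), which was 0.12 without BPA animal 3, whose summed level was highest. Kcnj8, a potassium channel of pericytes, went the other way at 417 to 703 (median 574) in BPA fat and 715, 802 and 707 in the vehicle animals, without overlap. Pdgfrb, the receptor that holds pericytes to vessels, was 523 to 816 (median 632) against 767, 894 and 793 with overlap, a log2 fold of -0.36. Neither passed the adjusted threshold.

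In the stroma, Ly6a, the surface protein Sca-1 that marks fat progenitors and some endothelium, was 417 to 689 (median 557) in BPA fat and 743, 1074 and 818 in the vehicle animals. The groups did not overlap, with a log2 fold of -0.65 (95% interval -1.03 to -0.27) that was -0.50 without vehicle animal 3. Thy1, another stromal and lymphocyte surface protein, was 136 to 201 (median 165) against 167, 470.0 and 328 with a log2 fold of -0.84 that was -0.50 without vehicle animal 3. Mmp2, a gelatinase that cuts basement membrane collagen, was 607 to 871 (median 786) against 981, 1186 and 980.5 without overlap, with a log2 fold of -0.46 (95% interval -0.74 to -0.17) and -0.37 without vehicle animal 3. Collagen chains were lower for 20 of 23 members, led by Col3a1 at 12096 to 18739 against 16717, 35481 and 17355, and their median of -0.26 was -0.08 without that animal. Progenitor and fibroblast genes were lower for 23 of 30 members with a median of -0.15. Without vehicle animal 3, 20 were lower with a median of -0.17, so the median did not rest on that animal. The members lower at an unadjusted limma p under 0.05 went from 4 (13.3% against 2.07% of all genes) to 1 (3.33% against 0.791%) without it.

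Igf2bp2, which binds Igf2 and other mRNAs and affects their translation, was 118 to 209 (median 141) in BPA fat and 235, 264 and 232 in the vehicle animals. The vehicle values were even, none overlapped the BPA values, and the log2 fold was -0.72 (95% interval -1.10 to -0.33) with all animals and -0.66 without vehicle animal 3. Pdia6, a disulfide isomerase of the endoplasmic reticulum, was 1002 to 1171 (median 1065) against 1345, 1872 and 1320.2, and Lmo4, a LIM-only partner of transcription factors, was 558 to 833 (median 706) against 956, 1234 and 886. Both separated fully, with log2 folds of -0.47 and -0.58, and of -0.31 and -0.44 without vehicle animal 3. Of the 14 measured genes of the IGF axis 9 were lower and 5 higher, and Igf1 itself was 7639 to 12041 (median 11308) against 13431, 15099 and 11573 with overlap. Herpud1, a stress-induced protein of endoplasmic reticulum degradation, separated in the opposite direction to Pdia6, at 257 to 371 in BPA fat against 247, 185 and 230.0.

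Among genes that could be named, the largest fold higher in BPA fat with no overlap and a mean of at least 100 belonged to Adrbk2. It encodes G protein-coupled receptor kinase 3, which phosphorylates active receptors and so desensitizes them. Its normalized read count was 207 to 402 (median 353) in BPA fat and 63.3, 147 and 145 in vehicle animals 2, 3 and 5. All BPA animals lay above all vehicle animals, and the lowest of them, BPA animal 3, stood well below the other 5. The means were 335 ± 66.4 against 118 ± 47.5 (SD, n = 6 and 3), with a log2 fold of 1.56 (95% interval 0.94 to 2.19), an exact permutation p of 0.0119 and a limma adjusted p of 0.959. Without vehicle animals 2, 3 and 5 in turn the log2 fold was 1.17, 1.77 and 1.76. The adrenergic signalling list, whose receptors such kinases act on, was divided 9 higher and 8 lower with a median of 0.03, and none of its members had an unadjusted p under 0.05.

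Epithelial and cytoskeletal genes followed. Eppk1, the cytoskeletal linker epiplakin, was 126 to 254 (median 192) in BPA fat and 87.2, 82.2 and 97.9 in the vehicle animals, with a log2 fold of 1.03 (95% interval 0.55 to 1.51). Celsr2, an atypical cadherin of planar cell polarity, was 116 to 274 (median 147) against 83.9, 69.3 and 80.8, with a log2 fold of 0.99, and the highest value was BPA animal 5, one of the animals with duct transcripts. Without BPA animals 2 and 5 the log2 fold of Celsr2 was 0.80 and that of Eppk1 0.98. Hspb7, a small heat shock protein of muscle, was 126 to 316 (median 196) against 126, 79.5 and 94.2, with its lowest BPA animal just above vehicle animal 2. Nexn, the actin-binding protein nexilin, was 105 to 277 (median 162) against 90.4, 80.8 and 90.7, and both genes kept log2 folds of 0.84 and 0.91 without vehicle animal 3. Ift81, which carries tubulin into cilia, was 198 to 359 against 194, 118 and 172, and its highest value was also BPA animal 5.

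Several nuclear and membrane proteins separated by smaller folds. Zfp788, Zfp14 and Zbtb26 encode zinc finger proteins, with log2 folds of 0.57, 0.72 and 0.62. Zfp788 was 216 to 261 (median 231) in BPA fat and 161, 123.7 and 192 in the vehicle animals, and the 6 BPA values of Zbtb26 lay within 141 to 165 against 136, 76.6 and 103. Vehicle animal 3 was the lowest animal for all 3 genes, and without it the log2 folds were 0.40, 0.55 and 0.41. Tspan6, a tetraspanin of the cell membrane, was 340.1 to 463 (median 412) against 218, 281 and 332, and Ttc14, a tetratricopeptide repeat protein, was 742 to 863 (median 784) against 655, 445 and 572. Their log2 folds were 0.58 and 0.52, with exact permutation p-values of 0.0119 each.

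Adipocyte identity genes were divided evenly, 14 higher and 14 lower, with a median of 0.01 and none at an unadjusted p under 0.05. Fatty acid synthesis genes were higher for 16 of 21 members with a median of 0.17. Srebf1, the transcription factor that drives this pathway, was 669.9 to 1022 (median 969) in BPA fat and 746, 659 and 625 in the vehicle animals with overlap, a log2 fold of 0.42 (95% interval 0.11 to 0.74) and an exact permutation p of 0.0476. Fatty acid synthase (Fasn) was 12762 to 19944 (median 14350.5) against 8931, 17374 and 7871, so vehicle animals 2 and 5 lay below the BPA range and vehicle animal 3 inside it, and the log2 fold of 0.48 was 0.83 without vehicle animal 3 and 0.26 without vehicle animal 5. Without vehicle animal 5 the list median was 0.08. Sfrp5, a secreted Wnt inhibitor of fat, was lower at 353 to 602 (median 496) against 687, 696 and 657, without overlap.

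Brown and beige fat genes had a median of 0.31 (12 of 16 higher) that was 0.01 without BPA animal 3. Ucp1, the uncoupling protein of brown and beige adipocytes, stood at 1463 in that animal, at 0.098, 12.8 and 39.4 in the vehicle animals and at most 32.3 in the other BPA animals. Prdm16, a cofactor of the brown fat program, was higher without resting on that animal. It was 105 to 148 (median 127) in BPA fat and 73.0, 55.1 and 104 in the vehicle animals, with the lowest BPA animal next to vehicle animal 5, and its log2 fold of 0.73 (95% interval 0.29 to 1.17) was 0.68 without BPA animal 3. Triglyceride assembly, fatty acid oxidation, respiratory chain and insulin signalling lists had medians of 0.08, 0.04, -0.02 and 0.05.

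Clock genes were higher for 14 of 21 members, 5 of them at an unadjusted p under 0.05 (23.8% against 2.27% of all genes), none lower at that p, and the median was 0.14. Without vehicle animal 3, 12 were higher and 9 lower, none had an unadjusted p under 0.05, and the median was 0.07. Per2, a repressor of the clock, was 369 to 739.6 (median 545) in BPA fat and 437, 197 and 242 in the vehicle animals. Dbp, an output transcription factor, was 150.2 to 481 (median 308) against 175, 142 and 163, and the related Hlf was 497 to 798 (median 734) against 522, 450.4 and 530.2. The groups overlapped for all 3 genes, by 1 or more BPA animals, with log2 folds of 0.93, 0.82 and 0.46 and exact permutation p-values of 0.0595, 0.0714 and 0.0476. The hour at which each animal was killed is not given in the labels, so its part in these values was not tested.

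NAD metabolism genes went in both directions. Bst1, a surface enzyme that makes cyclic ADP-ribose from NAD, was 28.6 to 118 (median 54.2) in BPA fat and 111, 284 and 151 in the vehicle animals with overlap, a log2 fold of -1.52 (95% interval -2.55 to -0.49). Parp2, which uses NAD in DNA repair, was higher at 282 to 389 (median 330.4) against 278, 229.7 and 269, and Nadsyn1, which makes NAD, was 55.4 to 74.6 (median 65.8) against 53.3, 36.3 and 52.1. Both separated fully, with log2 folds of 0.37 and 0.46, the latter 0.28 without vehicle animal 3, and the list as a whole had a median of -0.06. Hoxd4, a homeobox gene of trunk position, was 13.7 to 34.6 (median 20.6) against 14.2, 3.54 and 5.23 at low levels, with a log2 fold of 1.55 (95% interval 0.59 to 2.51).

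By list median, genes that BPA is often studied for lay near the background. Nuclear receptors and steroid enzymes were 12 higher and 9 lower with a median of 0.02. Single members spread wider, with log2 folds from -0.42 to 1.15. The highest was the nuclear receptor gene Esrrg, which was 0.55 without vehicle animal 3 and 1.71 without vehicle animal 2. Conjugating enzymes and cytochromes P450, which clear compounds such as BPA, were 13 higher and 14 lower with a median of -0.01. DNA methylation genes had a median of 0.04 and imprinted genes 0.11. None of the members of these 4 lists passed the adjusted threshold, and those at an unadjusted p under 0.05 were Gadd45a, which acts in DNA demethylation, at 54.4 to 78.9 against 91.4, 80.3 and 96.2, and the imprinted Ppp1r9a, a neuronal actin-binding protein, at 1365 to 2295 against 1634, 1297 and 1371. Cytosolic ribosomal protein, glycolysis, cholesterol synthesis, immediate early and unfolded protein lists had medians between -0.07 and 0.01.

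Transcripts of other tissues varied between animals on both sides. Mesothelial genes, which mark the lining of the abdominal cavity, were lower for 13 of 14 members with a median of -0.70 that was -0.9966 without vehicle animal 3 and -0.41 without BPA animal 6. Mesothelin (Msln) was 21.2 to 123 (median 37.8) in BPA fat and 135, 122 and 109.5 in the vehicle animals, and only BPA animal 3 reached the vehicle values. Other mesothelial markers overlapped more. Wt1 was 41.4 to 118 (median 78.6) against 134, 58.0 and 83.5, and Krt19 was 12.7 to 358 (median 97.0) against 130, 95.2 and 120. Upk3b was 104 to 821 (median 162) against 653, 206 and 489. Summed over the list, BPA fat held 622 to 5262 and vehicle animals 2, 3 and 5 held 3039, 2281 and 2745. The 5 measured erythroid genes were all lower, with a median of -0.65, and Alas2, the first enzyme of heme synthesis in red cells, was 105 to 293 (median 179.5) against 243, 268 and 353. Hbb-b1 and Hbb-b2 carry identical values in the table, so they count as 1 measurement.

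Liver plasma protein genes showed the lowest median among lists of at least 5 members, -1.28, with 8 of 9 lower, but it came from vehicle animals 2 and 3. Albumin (Alb) was 67.5 to 139 (median 91.6) in BPA fat and 483, 422 and 64.5 in vehicle animals 2, 3 and 5, and apolipoprotein B (Apob) was 6.35 to 47.5 (median 15.6) against 162, 249 and 16.0. Vehicle animal 5 lay just below the BPA range for Alb and within it for Apob, and with vehicle animal 5 alone the list median was 0.03. Apoa1, the main protein of high-density lipoprotein, was 43.0 and 32.7 in vehicle animals 2 and 3 and at most 8.38 in BPA fat. The summed hepatocyte list ran from 55967 to 95274 in BPA fat and was 99154, 82485 and 79533 in the vehicle animals, since it also holds genes that fat expresses strongly. The part of liver transcripts in the immune differences of these animals was not tested.

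Summed over their lists, duct epithelium and cilia transcripts were highest in BPA animals 2 and 5 among the 9 animals, with vehicle animals 2 and 5 next. Megalin (Lrp2), an endocytic receptor of duct cells, was 51.8 to 11906 (median 159) in BPA fat and 999, 119 and 1219 in the vehicle animals, with high-Fggy vehicle animal 6 at 6882, and Foxj1, the master factor of motile cilia, was 0 to 136 (median 1.22) against 28.3, 0.64 and 16.9. Not every duct gene had this order. Cubn and Aqp1 were highest in BPA animal 5 but not raised in BPA animal 2. There Cubn was 53.6, against 61.0 and 56.2 in BPA animals 4 and 6, and Aqp1 was 1580, against 1608 in BPA animal 6. In vehicle animals 2, 3 and 5 Cubn was 53.3, 40.3 and 37.7. Without BPA animals 2 and 5 the list medians went from -0.09 to -1.15 for duct and from -0.20 to -1.46 for cilia, and without vehicle animal 3 they were -0.58 and -0.72. Lcn2 and Arl4c, which passed the adjusted threshold in that fit, followed this split among the BPA animals but not in vehicle animal 3. Lcn2, an iron-scavenging lipocalin of epithelia and neutrophils, was 1171 and 3063 in BPA animals 2 and 5, 37.7 to 72.5 in the other BPA animals, and 469, 1563 and 503 in the vehicle animals, with a log2 fold of -3.83 (limma adjusted p = 0.0272). Arl4c, a small GTPase, was 398 and 1093 in BPA animals 2 and 5, 100.6 to 118 in the others and 281, 268 and 307 in the vehicle animals, with a log2 fold of -1.42 (limma adjusted p = 0.0225). These folds compare BPA fat low in duct transcripts with vehicle fat of which 2 animals carried them. Vehicle animal 3, at 119 for Lrp2, carried few, yet it lay above the BPA animals of this fit for both genes. The cause was not tested.

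**Figure D3:**
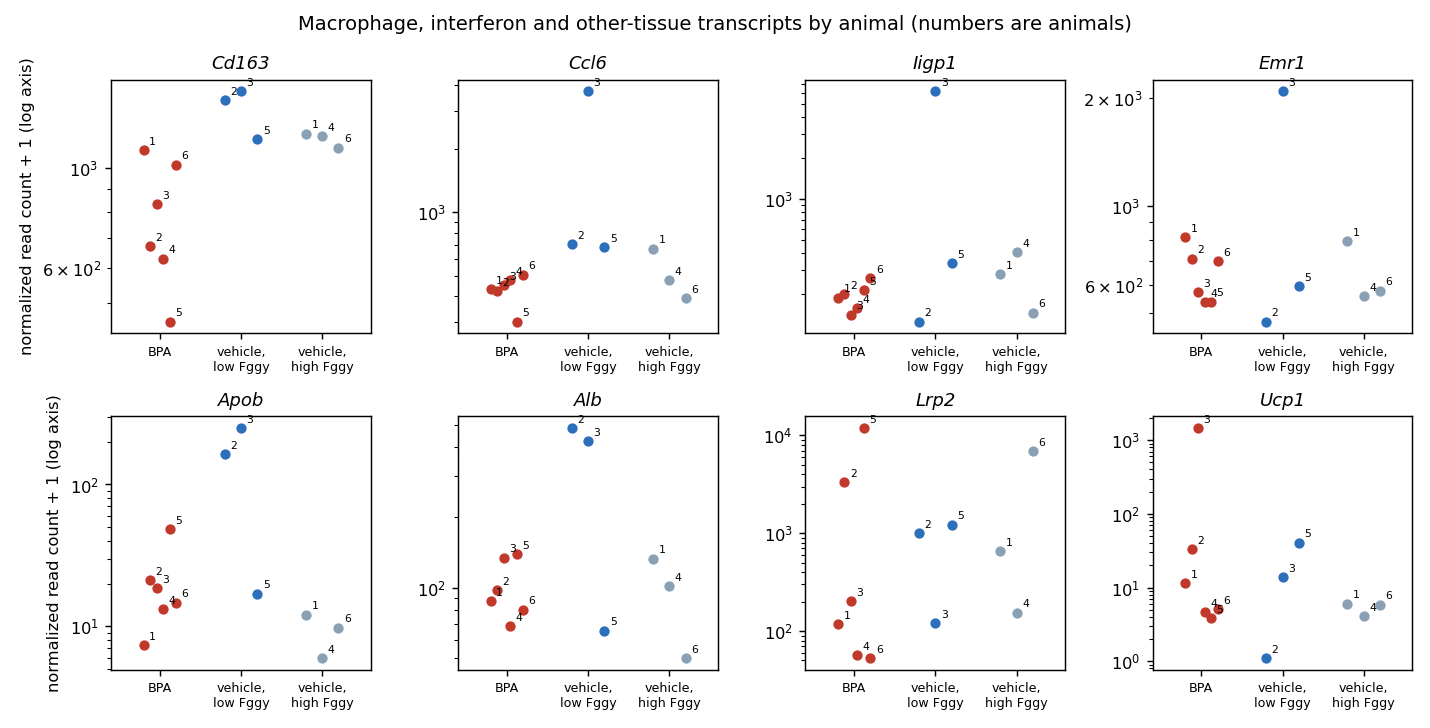
Normalized read count plus 1 (vertical axes, logarithmic) of 8 transcripts by animal in BPA, low-Fggy vehicle and high-Fggy vehicle fat; numbers beside points are animals. Cd163 and Ccl6 separate the BPA and low-Fggy vehicle animals, vehicle animal 3 is far above all others in Iigp1 and Emr1, vehicle animals 2 and 3 are high in Apob and Alb, Lrp2 is high in BPA animals 2 and 5 and in high-Fggy vehicle animal 6, and Ucp1 in BPA animal 3.

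Values in the 3 high-Fggy vehicle animals, numbers 1, 4 and 6 are given beside those of the other 9. Both contrasts use the same BPA animals, so the test of their difference is the contrast of high-Fggy against low-Fggy vehicle fat, in which none of 13020 genes passed the adjusted threshold (limma, smallest adjusted p 0.999) and 440 (3.38%) had an unadjusted p under 0.05. For Darc the high-Fggy vehicle animals read 76.6, 73.1 and 105, within or near the BPA range, with a log2 fold of BPA minus high-Fggy vehicle of 0.01 (-0.34 to 0.37) and of high minus low vehicle of -0.88 (-1.28 to -0.47). For Ctsc they read 1386, 1405 and 1383, with log2 folds of -0.02 (-0.43 to 0.38) and -0.79 (-1.26 to -0.32). For Adrbk2 they read 408, 208 and 323, with 0.12 (-0.52 to 0.76) and 1.44 (0.70 to 2.18). These 3 genes were chosen for how far the low-Fggy vehicle animals lay from BPA fat, and the vehicle contrast uses the same low-Fggy animals, so a fold of that sign in it is no independent result.

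Fcna lay between, at 282, 168 and 326 in the high-Fggy vehicle animals, with log2 folds of -0.35 (-0.84 to 0.13) for BPA minus high-Fggy vehicle and -0.73 (-1.29 to -0.17) for high minus low vehicle. Cd163, Bst1 and Msln had the opposite arrangement. Cd163 was 1191, 1175 and 1108 in the high-Fggy vehicle animals, with log2 folds of -0.63 (-1.13 to -0.13) and -0.22 (-0.79 to 0.36). Bst1 was 286, 118 and 129, with log2 folds of -1.48 (-2.49 to -0.46) and -0.04 (-1.22 to 1.13), and Msln was 301, 64.6 and 132, with -1.60 (-2.73 to -0.47) and 0.17 (-1.13 to 1.48). Here both kinds of vehicle fat lay on the same side of most BPA animals, although the intervals of the vehicle contrast also hold sizeable differences. By list, the median of BPA minus high-Fggy vehicle was -0.08 for resident macrophage, -0.06 for interferon, -0.07 for complement, -0.00014 for clock and -1.06 for mesothelium genes. Against low-Fggy vehicle these medians were -0.52, -0.69, -0.59, 0.14 and -0.70. Without vehicle animal 3 the latter were -0.18, -0.03, -0.14, 0.07 and -0.9966.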

How the data were processed

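RNA of epididymal fat was sequenced in 12 mice, of which the 6 BPA and the 3 vehicle animals marked low in Fggy were compared. Each deposited RNA value is a signal, the read count of a gene after the authors rescaled the libraries, and raw counts were not used here. Per the submitters' processing notes, mm9 and edgeR were used. The aligner, annotation and versions were not given in the sources used here. Above the table stands a panel of 13 rows, and the 12 that repeat it were dropped. In 25 rows the symbol is a date and 512 rows are marked duplicates; these, with clone and predicted names, were tested (1084 genes) and not named. The filter was passed through BPA animals only by 111 genes and through vehicle animals only by 1, and 7603 genes were not tested.

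Here log2(value + 1) was fitted with limma 3.58.1 in R 4.3.3 (intensity trend, two-sided, Benjamini-Hochberg at 0.05), which understates folds of low genes. The fit was checked on simulated data. Named genes were also tested by exact permutation over 84 assignments. The rule for named genes took the 10 smallest p per direction, the 8 largest folds per direction without overlap at a mean of at least 100, and the 3 smallest p of each of 45 gene lists; other genes are given for their level only and were chosen after their values were seen. It gave values for 146 genes, many of which are not described, and a few others are not reported here. Of 1037 different list members 1018 were found by current or older symbol and 845 were tested. The animals, lists and tests were chosen with earlier results of these data known. Alternatives were other pseudocounts (0.1 and 10), filters, quantile normalization, no trend, array weights, all 12 libraries, a replicate block and libraries left out. Promoters are RefSeq's for GRCm38.p6. DNA methylation data and the authors' smaller tables were not used here.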

Additional observations from a re-analysis of the deposited data

Results flagged for a closer look

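In the 6 BPA animals, 8 of the 146 genes tested had 1 value far from the others by Dixon's test. The test flags about 1 in 20 groups by chance, or 7.3 of 146, so the number is near that level. BPA animal 5 was lowest for Ccl6 at 302 and for Fcna at 129, and highest for Celsr2 at 274. BPA animal 4 was highest for S100b, a calcium-binding protein of nerve and fat, at 1184, and lowest for Igf1 at 7639. BPA animal 3 was lowest for Adrbk2 at 207. BPA animal 6 was lowest for Pkm2 at 25.97, and BPA animal 1 was highest for Gper, a membrane estrogen receptor, at 30.8. Without BPA animal 3 the log2 fold of Adrbk2 was 1.70.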

How the results depend on the processing

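No gene passed the adjusted threshold in 19 of the 21 alternatives. Without a filter on low values 1 gene was higher (Hmgcll1, at most 2.53 in any BPA animal) and 2, with clone names, were lower. Without BPA animals 2 and 5, 0 were higher and 3 lower, among them Lcn2 and Arl4c. The counts were 0 and 0 in every fit that left out 1 animal, while at an unadjusted p under 0.05 those fits gave 150 to 399 higher and 103 to 549 lower. Depth is unknown, and 3 vehicle animals limit every fold.

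The replicate block gave 0 calls, with 704 higher and 315 lower genes at an unadjusted limma p under 0.05. BPA animals 1, 4 and 6 have no low-Fggy vehicle animal of their number. The folds of this fit therefore compare only animals 2, 3 and 5 of each side. Its values differ from the main fit in the BPA animals used as well as in the block. Same-numbered animals correlated at 0.283, 0.056 and 0.262 in their deviations for numbers 2, 3 and 5. None correlated best with its own number, and the best correlations were 0.38, 0.359 and 0.271. With 3 vehicle animals these values cannot decide whether the numbers pair the animals. Under the block the log2 fold of Spata18 was 1.04, and list medians went from -0.09 to 1.58 for duct epithelium, from -0.20 to 1.28 for motile cilia, from -1.28 to -0.51 for hepatocyte, from -0.70 to -0.08 for mesothelium, from 0.31 to 0.82 for brown and beige fat, from -0.55 to -0.14 for T and B lymphocyte and from 0.28 to 0.62 for smooth muscle genes. Adipocyte identity genes went from 14 to 4 higher of 28.

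Of the named genes 13 had another sign somewhere. With vehicle animal 5 alone, an alternative chosen after seeing the data, log2 folds became -0.18 for Ppara, 0.068 for Ptpn1, -0.064 for Ldhb, 0.046 for Gnai2, 1.52 for Fgb, -0.16 for Gapdhs, 0.029 for Apob, 0.58 for Alb, 0.013 for Fosl2 and 0.26 for Mt2. Spata18 was 0.064 at a pseudocount of 10, and without BPA animals 2 and 5 Spag17 was -0.046 and Odf2 0.029. Leaving out 1 animal at a time, log2 folds ran from -0.35 to 0.018 for Gnai2, from -0.085 to 1.27 for Spag17, from -0.084 to 0.33 for Gapdhs, from -1.55 to 0.12 for Spata18 and from -0.073 to 0.030 for Odf2. The causes were not tested.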

Other observations

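Genes whose symbol starts with Zfp, a set looked at after the 2 zinc finger genes above had been seen and so given without a test, were higher in BPA fat for 189 of 273 (69.2% against 51.4% of all genes), with a median log2 fold of 0.10. At an unadjusted p under 0.05, 15 were higher (5.49% against 2.27%) and 2 lower. Without vehicle animal 3 the median was 0.03 and 58.2% were higher, against 51.1% of all genes, and without vehicle animals 2 or 5 it was 0.13 and 0.11. By animal, the largest share of genes had their highest value in BPA animal 5 (20.2%), followed by vehicle animal 3 (17.6%).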
